A study of Mus musculus with 6 samples.

Results

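The 40 genes described here act from the G2 phase of the cell cycle to the end of mitosis. They were taken as a list of gene symbols, chosen with earlier results of these data known. Measured values enter the rule where a gene has several probe sets, of which the 1 with the highest mean was read. Of these 40 genes, 36 were each read by a probe set of 1 gene on the arrays, and all 36 passed the filter on low levels that left 11292 of 18820 genes for testing. Ube2c, Kif20a and Nusap1 lie only on probe sets that name several genes, and they and Ccnb1 were not analysed here. The arrays profiled RNA of C2C12 cells, mouse myoblasts of an immortalized line whose cells fuse into myotubes in low serum, on day 7 of differentiation. For the 3 silenced arrays the cells had received, on day 6 of culture in 2% horse serum, a locked nucleic acid (LNA) inhibitor of miR-382-5p at 50 nM. For the 3 control arrays they had received the LNA Negative Control A at the same concentration, and all were collected 24 h after transfection. Each group carries replicate numbers 1, 2 and 3 in its labels, and no label says what a number stands for or whether the samples of a group were grown as separate cultures. The p-values therefore describe only how far these 6 samples spread, and that spread may be technical. Levels are log2 values as deposited, read per gene from the probe set with the highest mean over the 6 arrays, and differences are on the log2 scale.

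Mitosis is driven by cyclin-dependent kinase 1 (Cdk1) bound to A- and B-type cyclins, with Aurora and Polo-like kinases acting on centrosomes, chromosomes and the spindle. Separation of the chromosomes waits for the spindle checkpoint, after which the anaphase-promoting complex marks cyclin B and securin for destruction and the cell divides. Fused myotube nuclei have left the cell cycle for good, whereas a differentiating C2C12 culture also holds mononucleated cells that have not fused. In RNA of a whole culture, fewer dividing cells and less mitotic RNA per cell cannot be told apart. Many mitotic genes carry a cell cycle genes homology region (CHR), read by the DREAM complex when cells rest and by complexes of MuvB with B-Myb and FOXM1 when they divide, and CCAAT boxes, bound by NF-Y.

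The oligonucleotide given to the silenced cells is directed at the following microRNA, shown with its seed, bases 2 to 8, in capitals (RefSeq, GRCm38.p6, chr12:109733781-109733802, plus strand).
mmu-miR-382-5p: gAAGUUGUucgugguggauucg

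Promoters of 4 of the genes are shown next, because 3 of them hold the letters of both elements and 1 holds neither, and because Ccnb2 differed from the other 3 in its pattern over the arrays. Each window runs from 250 bases before to 50 bases after the start of the gene in RefSeq, GRCm38.p6, and capitals mark the CHR core TTTGAA and the CCAAT box, each searched on both strands, with no overlap between the 2 motifs in these windows.
Cdk1 (chr10:69352863-69353162, minus strand): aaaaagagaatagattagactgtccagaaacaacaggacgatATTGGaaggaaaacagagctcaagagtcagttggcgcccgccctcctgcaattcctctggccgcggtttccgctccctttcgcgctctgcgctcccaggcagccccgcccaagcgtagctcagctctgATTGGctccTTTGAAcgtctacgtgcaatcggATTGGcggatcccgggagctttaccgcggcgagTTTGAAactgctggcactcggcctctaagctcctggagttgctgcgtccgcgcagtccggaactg
Kif4 (chrX:100625815-100626114, plus strand): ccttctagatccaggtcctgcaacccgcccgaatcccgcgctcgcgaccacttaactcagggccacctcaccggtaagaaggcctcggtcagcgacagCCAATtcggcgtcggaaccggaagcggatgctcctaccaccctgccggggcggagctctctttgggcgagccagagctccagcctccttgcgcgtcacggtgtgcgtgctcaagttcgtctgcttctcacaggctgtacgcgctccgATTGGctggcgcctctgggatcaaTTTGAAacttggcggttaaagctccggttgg
Birc5 (chr11:117848987-117849286, plus strand): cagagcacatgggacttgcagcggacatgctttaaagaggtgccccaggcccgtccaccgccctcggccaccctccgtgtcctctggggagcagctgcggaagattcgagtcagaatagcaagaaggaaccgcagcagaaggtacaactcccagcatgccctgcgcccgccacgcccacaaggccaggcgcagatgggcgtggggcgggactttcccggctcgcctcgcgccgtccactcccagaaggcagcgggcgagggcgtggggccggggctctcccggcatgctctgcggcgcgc
Ccnb2 (chr9:70421505-70421804, minus strand): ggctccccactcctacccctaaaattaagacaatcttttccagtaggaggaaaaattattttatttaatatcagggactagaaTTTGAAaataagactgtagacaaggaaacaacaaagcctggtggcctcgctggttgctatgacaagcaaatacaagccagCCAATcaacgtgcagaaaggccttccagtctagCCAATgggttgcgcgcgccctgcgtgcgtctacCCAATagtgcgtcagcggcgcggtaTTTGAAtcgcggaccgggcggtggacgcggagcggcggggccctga

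The table of promoters matched 34 of the 40 genes. Of these 34, 27 (79.4%) held TTTGAA, against 20.2% of all 27025 genes with a promoter, and 25 (73.5%) held CCAAT, against 41.1% of all genes. Both motifs stood together in 22 of the 34 promoters (64.7%), against 7.97% of all genes. Related lists shared part of this. In 54 other mitotic genes the shares were 57.4% for TTTGAA, 68.5% for CCAAT and 42.6% for both. In 25 replication licensing genes they were 20%, 68% and 12%, so a high share of CCAAT was not particular to the 34 genes. In the Ccnb2 window neighbouring CCAAT boxes start 33 bases apart and a TTTGAA lies at positions 5 to 10 after the start. In the Cdk1 window TTTGAA lies at positions -71 to -66 and -15 to -10, and in the Kif4 window at 20 to 25. These matches describe letters in a window and were not measured as bound sites, and the Birc5 window shows only that these letters are not in it. TTTGAA stood in 21 of 25 matched genes (84%) whose level was highest in array 1 and lowest in array 3 of both groups, with array 2 between, and in 5 of 6 (83.3%) with another order.

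Silenced and control arrays did not differ detectably in any of the 36 genes. By limma, with Benjamini-Hochberg adjustment over all 11292 genes, 0 of 36 passed an adjusted p of 0.05 (background 0%), the smallest adjusted p was 0.871, and 0 of 36 had an unadjusted p under 0.05 (background 1.97% lower and 2.83% higher). The median difference, silenced minus control, was -0.061 over the 36 genes and 0.0089 over all tested genes, and 26 of the 36 had the lower mean in silenced arrays (background 47.3%). Differences ran from -0.24 for Smc2, a condensin subunit, to 0.16 for Ccnb2, which encodes cyclin B2. The 95% confidence intervals of this fit of group alone had a median half-width of 0.46. Within it, a difference smaller than a gene's half-width has an interval that spans 0, even before adjustment over all genes. Intervals given for single genes below are from this fit unless the block is named. The sign of the median changed in fits of group alone that left out 1 array. It was 0.12 without silenced replicate 3 and 0.084 without control replicate 1. It was -0.21 without silenced replicate 1 and -0.18 without control replicate 3. Such fits leave the replicate numbers unequal between the groups, so a difference between the numbers enters the median. Without both arrays numbered 1, which keeps the numbers equal, the median was -0.090. In the limma fit that blocks on the replicate number, 0 of 36 passed (background 0%) and the median half-width was 0.20. There only Smc2, lower in silenced arrays, had an unadjusted p under 0.05 (0.0184, adjusted p = 0.464), against a background of 4.57% lower and 5.77% higher.

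**Figure D1:**
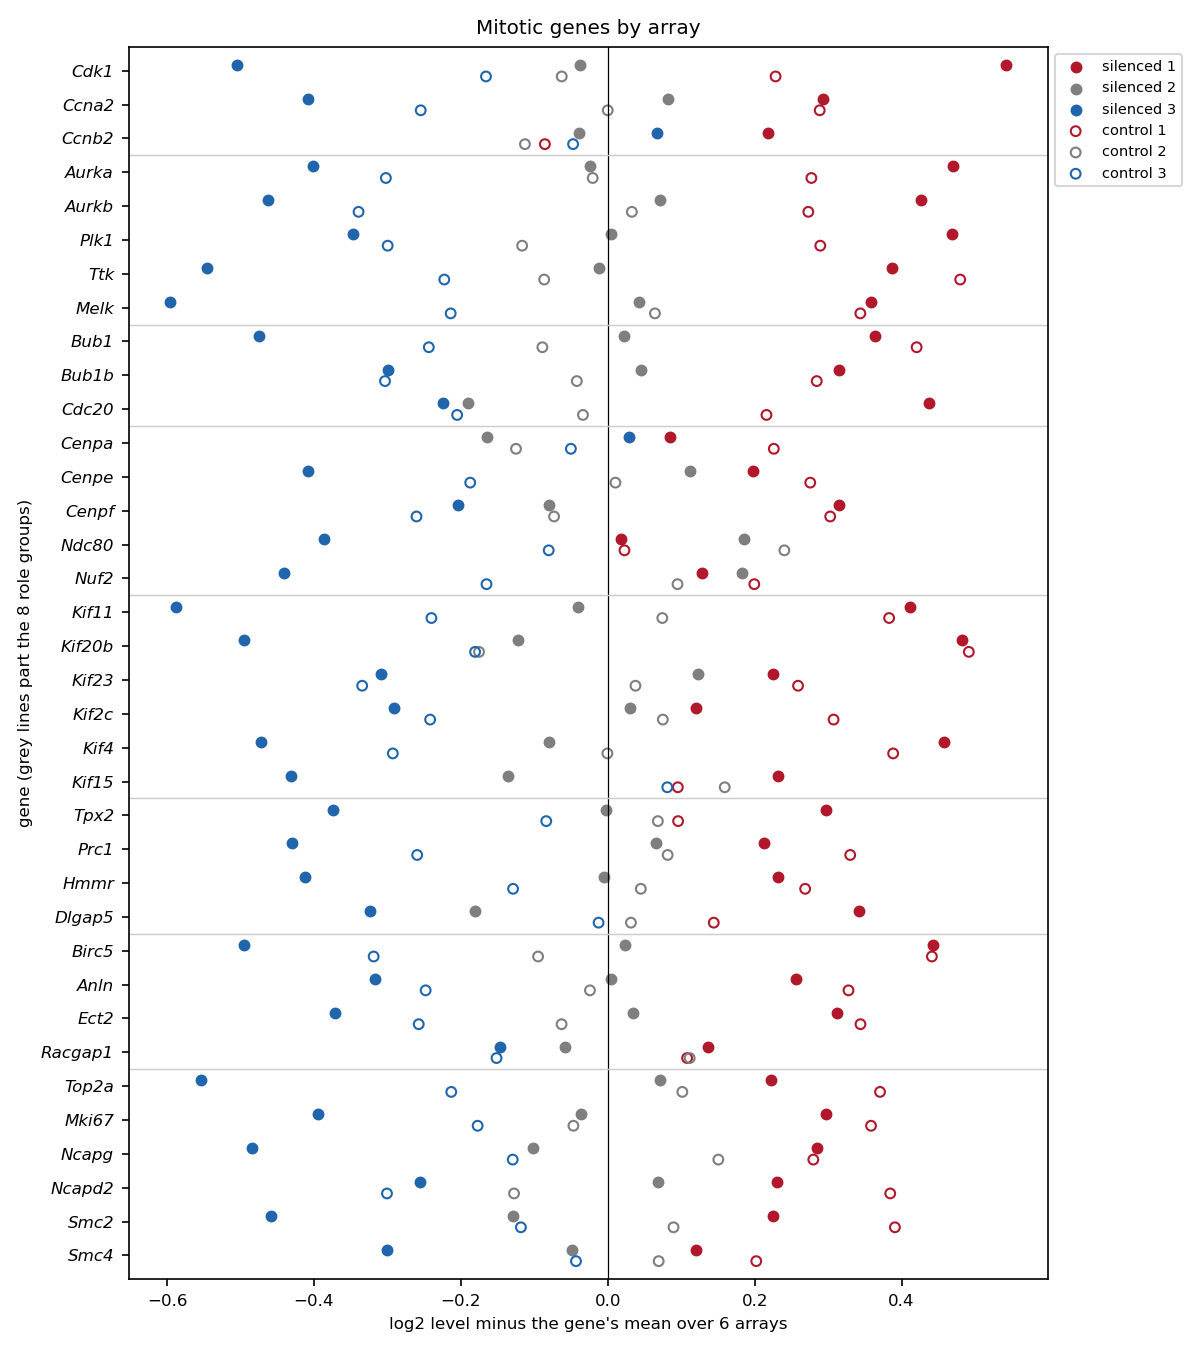
Level of each of the 36 mitotic genes on each array, as the log2 level minus that gene's mean over the 6 arrays (horizontal axis), with filled points for silenced and open points for control arrays and colours for replicate numbers 1 (red), 2 (grey) and 3 (blue). In both groups the red points lie mostly to the right and the blue points to the left, and in 30 of 36 genes the order 1, 2, 3 from high to low is complete in both groups.

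Levels of most of these genes followed the replicate number. In 30 of the 36 genes (83.3%) array 1 was highest, array 2 in the middle and array 3 lowest in the silenced and in the control group alike (background 6.39% of tested genes). Array 1 was the highest of its group in both groups for 31 genes (86.1%, background 22.6%) and array 3 the lowest in both for 34 (94.4%, background 13.3%). In 31 genes both arrays numbered 1 lay above the other 4 (background 16.0%), and in 30 both arrays numbered 3 lay below the other 4 (background 7.57%). The median over genes of the level, relative to each gene's own mean, was 0.29, -0.0041 and -0.40 in silenced arrays 1, 2 and 3, against 0.29, 0.0052 and -0.21 in control arrays 1, 2 and 3. Silenced and control arrays numbered 1 lay close to each other, as did those numbered 2, while silenced array 3 lay below control array 3.

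In a limma fit with group and replicate number as terms, 13 of 36 genes (36.1%) passed an adjusted p of 0.05 for the number (background 3.12%). Of the 3 pairwise contrasts, number 1 over number 3 was called for 25 of 36 genes (69.4%, background 2.20%), all of them higher in number 1. The median difference was 0.59, which is 1.51-fold, and all 36 differences were above 0, from 0.057 for Ccnb2 to 0.85 for Birc5. Number 1 over number 2 was called for 1 gene, Kif20b (background 0.788%), with a median difference of 0.30. At an unadjusted p under 0.05, 21 of the 36 were higher in number 1, against 1180 of all 11292 tested genes. Number 2 over number 3 was called for 0 genes by limma (background 0%), with a median of 0.30. At an unadjusted p under 0.05, 24 of the 36 were higher in number 2, against 519 of all 11292 tested genes. These counts move with the fit. The 13 genes called for the number became 0 without the filter on low levels, 20 after a repeated quantile normalization, 29 with a stricter filter and 31 with an intensity trend and robust prior. They became 0 without silenced replicate 3 and 0 without control replicate 3, 5 without silenced replicate 2, 6 without control replicate 2, 24 without silenced replicate 1 and 29 without control replicate 1. The 25 genes called for number 1 over number 3 became 2 without the filter, and 0 without silenced replicate 3 or without control replicate 3. The median of that difference stayed between 0.54 and 0.66 in all fits that left out 1 array.

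**Figure D2:**
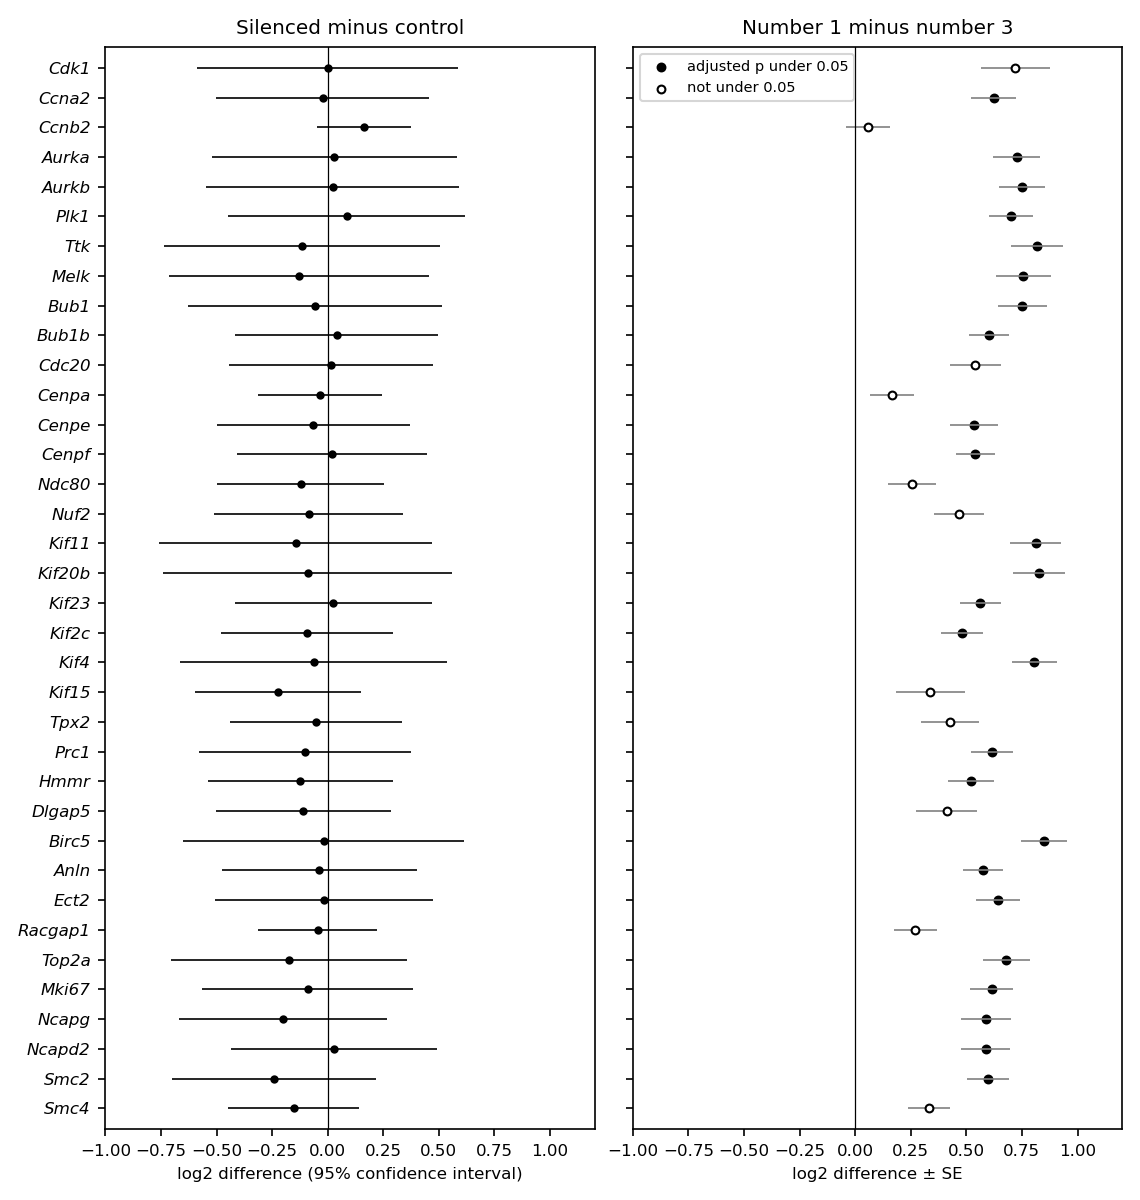
Log2 differences of the 36 genes. On the left is silenced minus control with the 95% confidence interval of the fit of group alone, without the replicate block. On the right is replicate number 1 minus number 3 with the SE and filled points where the adjusted p was under 0.05. All intervals on the left span 0, and all 36 points on the right lie above 0, of which 25 are filled.

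Among the cyclins and their kinase, Cdk1, the kinase that starts mitosis, followed the number in both groups. Cdk1 read 8.25, 7.67 and 7.20 in silenced arrays 1, 2 and 3, against 7.93, 7.64 and 7.54 in control arrays 1, 2 and 3. The mean was 7.71 ± 0.52 in silenced and 7.71 ± 0.20 in control arrays (SD, n = 3 each), and the difference of number 1 minus 3 was 0.72 ± 0.16 (SE), which missed the threshold in limma (adjusted p = 0.0581). Ccna2 read 10.31, 10.10 and 9.61 in silenced arrays 1, 2 and 3, against 10.31, 10.02 and 9.76 in control arrays 1, 2 and 3, the same order in both groups. Ccna2 encodes cyclin A2, which serves S phase and entry into mitosis. It was 1.54-fold higher in number 1 than in number 3 (limma, adjusted p = 0.0276 for number 1 over 3). For the number it missed the threshold (limma, adjusted p = 0.054). Ccnb2 stood outside the pattern. Ccnb2 read 10.07, 9.81 and 9.92 in silenced arrays 1, 2 and 3, against 9.76, 9.74 and 9.80 in control arrays 1, 2 and 3. It was the 1 gene of 36 whose silenced values all lay above its control values (background 6.94%), with a difference of 0.16 (95% confidence interval -0.05 to 0.38) and an adjusted p of 0.871 in limma. No gene of the 36 had silenced values all below its control values (background 4.87%).

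All 5 mitotic kinase genes kept the order 1, 2, 3 in both groups, and 4 of them passed for the number. Aurkb read 8.60, 8.25 and 7.72 in silenced arrays 1, 2 and 3, against 8.45, 8.21 and 7.84 in control arrays 1, 2 and 3. Aurkb encodes the kinase of the chromosomal passenger complex, which corrects faulty attachments to the spindle, and its difference of number 1 minus 3 was 0.75 ± 0.10 (SE), or 1.68-fold (limma, adjusted p = 0.0358 for the number). Plk1 read 9.12, 8.65 and 8.30 in silenced arrays 1, 2 and 3, against 8.94, 8.53 and 8.35 in control arrays 1, 2 and 3. Plk1, the Polo-like kinase of centrosome maturation and mitotic exit, differed by 0.70 ± 0.10 (SE) between numbers 1 and 3 (limma, adjusted p = 0.0386 for the number). Aurka, the centrosomal Aurora kinase, and Ttk, the checkpoint kinase also called Mps1, passed as well, with differences of 0.73 ± 0.11 (SE) and 0.82 ± 0.12 (SE). Melk read 7.81, 7.50 and 6.86 in silenced arrays 1, 2 and 3, against 7.80, 7.52 and 7.24 in control arrays 1, 2 and 3. Melk, a kinase found in dividing cells, had the smallest group p of these kinases, with a silenced minus control difference of -0.13 (95% confidence interval -0.71 to 0.45). Its silenced array 3 was the lowest of the 6 arrays, and the groups overlapped.

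The spindle checkpoint genes Bub1 and Bub1b also passed for the number. Bub1 read 8.46, 8.12 and 7.62 in silenced arrays 1, 2 and 3, against 8.52, 8.01 and 7.85 in control arrays 1, 2 and 3. Bub1, a kinase that gathers checkpoint proteins at kinetochores, differed by 0.75 ± 0.11 (SE) between numbers 1 and 3 (limma, adjusted p = 0.0433 for the number) and by -0.06 (95% confidence interval -0.63 to 0.51) between silenced and control arrays. Bub1b encodes BubR1, part of the complex that holds back the anaphase-promoting complex, and differed by 0.60 ± 0.09 (SE) between numbers 1 and 3. Cdc20 read 7.30, 6.67 and 6.64 in silenced arrays 1, 2 and 3, against 7.08, 6.83 and 6.65 in control arrays 1, 2 and 3. Cdc20, the activator of the anaphase-promoting complex and the checkpoint's target, kept the order in both groups, but silenced arrays 2 and 3 lay close together, and it missed the threshold for the number (limma, adjusted p = 0.0945).

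Centromere and kinetochore genes had 2 of 5 in the full order and 0 of 5 passing for the number in limma (background 3.12%). For the number, 4 of 5 had an unadjusted p under 0.05 (background 20.4%). Cenpf read 8.56, 8.16 and 8.04 in silenced arrays 1, 2 and 3, against 8.55, 8.17 and 7.98 in control arrays 1, 2 and 3. Cenpf, a large kinetochore protein, kept the order and differed by 0.54 ± 0.09 (SE) between numbers 1 and 3. Cenpa read 7.57, 7.32 and 7.51 in silenced arrays 1, 2 and 3, against 7.71, 7.36 and 7.44 in control arrays 1, 2 and 3. Cenpa, the histone H3 variant that marks centromeres, was highest in number 1 and lowest in number 2 in both groups. Ndc80 read 7.30, 7.47 and 6.90 in silenced arrays 1, 2 and 3, against 7.31, 7.52 and 7.20 in control arrays 1, 2 and 3. Ndc80, which binds microtubules at the kinetochore, was highest in number 2 in both groups, and its partner Nuf2 was highest in number 2 in silenced arrays and in number 1 in control arrays. The silenced minus control difference of Ndc80 was -0.12 (95% confidence interval -0.50 to 0.25). Cenpe, the kinesin of the kinetochore, kept the order and differed by 0.53 ± 0.11 (SE) between numbers 1 and 3. Its adjusted p in limma was 0.049 for number 1 over 3 and 0.0921 for the number.

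Of the 6 mitotic kinesin genes, 5 kept the order in both groups and 3 passed for the number. Kif4 read 8.22, 7.69 and 7.29 in silenced arrays 1, 2 and 3, against 8.16, 7.77 and 7.47 in control arrays 1, 2 and 3. Kif4, a motor that binds chromosomes and the central spindle, differed by 0.81 ± 0.10 (SE), or 1.75-fold, between numbers 1 and 3 (limma, adjusted p = 0.0293 for the number). The 2 others that passed were Kif20b, a kinesin of cytokinesis, and Kif11, the motor that pushes spindle poles apart. They differed by 0.83 ± 0.12 (SE) and 0.81 ± 0.12 (SE) between numbers 1 and 3. Another probe set of Kif11, at a mean of 4.67, did not repeat the full order: it was highest in number 1 and lowest in number 2 in both groups. Kif15 read 7.28, 6.91 and 6.62 in silenced arrays 1, 2 and 3, against 7.14, 7.21 and 7.13 in control arrays 1, 2 and 3. Kif15, a motor that can share the work of Kif11, had control values within a narrow range and silenced values that spread widely, and its silenced minus control difference was -0.22 (95% confidence interval -0.60 to 0.15). Kif23 and Kif2c kept the order, with differences of 0.56 ± 0.09 (SE) and 0.48 ± 0.09 (SE) between numbers 1 and 3.

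Spindle assembly genes all kept the order in both groups, 4 of 4, and 1 of them passed for the number. Prc1 read 8.71, 8.56 and 8.06 in silenced arrays 1, 2 and 3, against 8.82, 8.58 and 8.23 in control arrays 1, 2 and 3. Prc1, which bundles the antiparallel microtubules of the central spindle, differed by 0.62 ± 0.09 (SE) between numbers 1 and 3 (limma, adjusted p = 0.0439 for the number). Its other probe set, at a mean of 2.94, lay below the filter on low levels. That probe set did not repeat the order in the silenced group, where array 3 was highest. Hmmr read 8.89, 8.66 and 8.25 in silenced arrays 1, 2 and 3, against 8.93, 8.71 and 8.53 in control arrays 1, 2 and 3. Hmmr, a spindle protein first known as a hyaluronan receptor, differed by -0.12 (95% confidence interval -0.54 to 0.29) between silenced and control arrays. It was lower in silenced arrays in all 3 same-numbered pairs (background 15.8%). Tpx2, which activates Aurora A on the spindle, and Dlgap5, a stabilizer of kinetochore microtubules, differed by 0.43 ± 0.13 (SE) and 0.41 ± 0.14 (SE) between numbers 1 and 3, and neither passed.

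Among 4 genes of cytokinesis and the central spindle, Birc5 had the largest difference of the 36 genes between numbers 1 and 3. Birc5 read 7.27, 6.85 and 6.33 in silenced arrays 1, 2 and 3, against 7.26, 6.73 and 6.50 in control arrays 1, 2 and 3. Birc5 encodes survivin, a subunit of the chromosomal passenger complex, and was 1.80-fold higher in number 1 than in number 3 (limma, adjusted p = 0.0293 for the number). Ect2, the exchange factor that activates RhoA at the cell equator, passed too, with 0.64 ± 0.10 (SE). Anln, a scaffold of the contractile ring, differed by 0.57 ± 0.09 (SE) (limma, adjusted p = 0.0269 for number 1 over 3). For the number Anln missed the threshold (limma, adjusted p = 0.0521). Racgap1 read 9.25, 9.05 and 8.96 in silenced arrays 1, 2 and 3, against 9.22, 9.22 and 8.96 in control arrays 1, 2 and 3. Racgap1, the partner of Kif23 in the centralspindlin complex, had nearly equal values in control arrays 1 and 2, and its difference of 0.27 ± 0.10 (SE) did not pass. The silenced minus control difference of Racgap1 was -0.05 (95% confidence interval -0.31 to 0.22).

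All 6 genes of chromosome structure kept the order in both groups. Top2a read 9.73, 9.58 and 8.96 in silenced arrays 1, 2 and 3, against 9.88, 9.61 and 9.30 in control arrays 1, 2 and 3. Top2a, the topoisomerase that untangles sister chromatids, differed by 0.68 ± 0.11 (SE) between numbers 1 and 3 (limma, adjusted p = 0.0491 for the number), while its 2 other probe sets did not repeat the order in the control group. One of them, at a mean of 5.19, was highest in control array 3, and the other, at 2.48, lay below the level required for testing. Mki67 read 9.70, 9.37 and 9.01 in silenced arrays 1, 2 and 3, against 9.77, 9.36 and 9.23 in control arrays 1, 2 and 3. Mki67, the Ki-67 antigen that coats mitotic chromosomes and marks dividing cells, was 1.53-fold higher in number 1 than in number 3. Its adjusted p in limma was 0.028 for number 1 over 3, and it missed the threshold for the number (adjusted p = 0.0551). Smc2 read 8.59, 8.23 and 7.90 in silenced arrays 1, 2 and 3, against 8.75, 8.45 and 8.24 in control arrays 1, 2 and 3. Smc2 had the lowest silenced minus control difference of the 36 genes, -0.24 (95% confidence interval -0.70 to 0.22 in the fit of group alone). With the replicate block its interval was -0.43 to -0.06, and it was not called (limma, adjusted p = 0.464). Smc2 was lower in silenced arrays in all 3 same-numbered pairs (background 15.8%), as were Smc4 and Top2a. The other condensin genes, Ncapg, Ncapd2 and Smc4, differed by 0.59 ± 0.11 (SE), 0.59 ± 0.11 (SE) and 0.33 ± 0.09 (SE) between numbers 1 and 3.

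**Figure D3:**
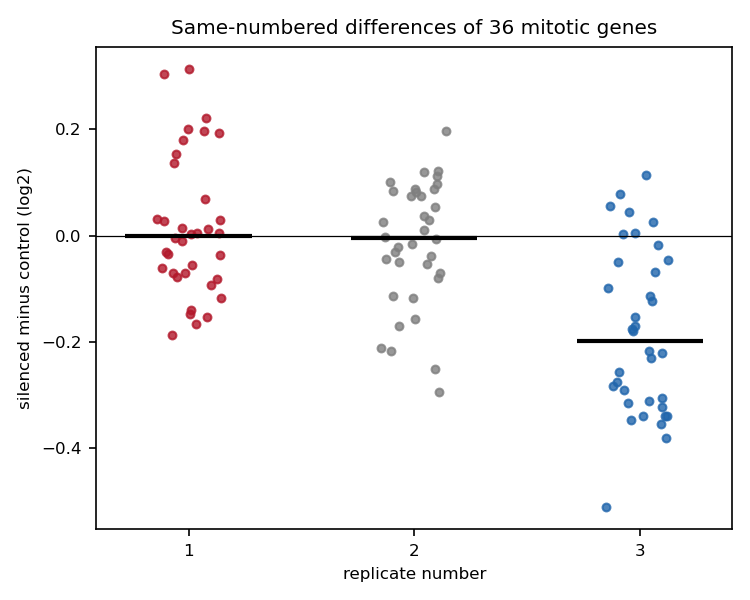
Silenced minus control difference (log2) of each of the 36 genes between the arrays of the same replicate number, with a black bar at the median. The medians lie at -0.0012 and -0.0052 for numbers 1 and 2 and at -0.20 for number 3.

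Within number 3 the silenced array lay below the control array for 29 of 36 genes (80.6%, background 48.0%), with a median difference of -0.20, against 18 and 19 genes within numbers 1 and 2. The median within numbers 1 and 2 was -0.0012 and -0.0052. This comparison sets 1 array against 1 and has no replicate check. The range from the highest to the lowest array was wider in the silenced than in the control group for 30 of 36 genes (background 55.0%), with a median of 0.67 in silenced and 0.55 in control arrays. In 7 of 36 genes (19.4%) silenced arrays were lower in all 3 same-numbered pairs, near the background of 15.8%. Silenced arrays were higher in all 3 pairs for 2 of 36 genes, against 2228 of all 11292 tested genes.

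A list of 67 further mitotic genes showed the same order for most members. Of its 59 tested members, 44 (74.6%, background 6.39%) had array 1 highest and array 3 lowest with array 2 between them in both groups. Number 1 over number 3 was called higher for 25 of the 59 (42.4%, background 2.20%) and lower for 0 (background 2.28%). For silenced against control 0 passed by limma, with 0 at an unadjusted p under 0.05 in the fit of group alone. With the replicate block 0 passed as well, and 5 were lower and 1 was higher at an unadjusted p under 0.05 (background 4.57% lower and 5.77% higher). Ncapg2 read 7.29, 6.94 and 6.71 in silenced arrays 1, 2 and 3, against 7.50, 7.26 and 7.24 in control arrays 1, 2 and 3. Ncapg2, a condensin II subunit, had the smallest group p among members lower in silenced arrays, with -0.35 (95% confidence interval -0.71 to 0.01). The groups overlapped, since silenced array 1 lay above control arrays 2 and 3, but Ncapg2 was lower in silenced arrays in all 3 same-numbered pairs. With the replicate block its interval was -0.56 to -0.14, and it was not called (limma, adjusted p = 0.464). Of the 59 members, 13 were lower and 5 were higher in all 3 pairs, against 1788 and 2228 of all 11292 tested genes. Cdc25b read 6.94, 6.74 and 6.41 in silenced arrays 1, 2 and 3, against 6.68, 6.51 and 6.41 in control arrays 1, 2 and 3. Cdc25b, a phosphatase that activates Cdk1, had the smallest group p among members higher in silenced arrays, with 0.16 (95% confidence interval -0.18 to 0.50). Mybl2 read 6.61, 6.07 and 6.09 in silenced arrays 1, 2 and 3, against 6.70, 6.15 and 5.82 in control arrays 1, 2 and 3. Mybl2 encodes B-Myb, and differed by 0.70 ± 0.12 (SE) between numbers 1 and 3 (limma, adjusted p = 0.0317 for number 1 over 3). Between silenced and control arrays it differed by 0.03 (95% confidence interval -0.53 to 0.60). It was the 1 gene of 13 tested regulators of mitotic genes called for number 1 over 3, while 0 of the 13 passed for the number (background 3.12%). Foxm1 was not analysed here.

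Replication licensing genes load and fire the replicative helicase before mitosis. Array 1 was highest in both groups for 24 of 28 of them, with a median of 0.42 for number 1 minus 3, while the median for number 2 minus 3 was -0.017, against 0.30 in the mitotic genes. Only Mcm3 and Mcm4 of the 28 passed for the number (7.14%, background 3.12%), and a difference between the lists was not tested. Of 29 G1 cyclins and cell-cycle exit genes, limma called 7 higher (24.1%, background 2.20%) and 1 lower (background 2.28%) in number 1 than in number 3. In these lists 0 genes were called for silenced against control by limma (background 0%). At an unadjusted p under 0.05, 1 licensing gene was lower (background 1.97%) and 1 of the 29 was higher (background 2.83%). With the replicate block 0 were called too. In that fit 5 of 28 licensing genes, all lower in silenced arrays, had an unadjusted p under 0.05 (background 4.57% lower). Of the 29, 1 gene, higher in silenced arrays, did so (background 5.77% higher). Cdkn1a read 11.99, 11.91 and 12.07 in silenced arrays 1, 2 and 3, against 11.81, 11.84 and 11.87 in control arrays 1, 2 and 3. Cdkn1a encodes p21, the inhibitor that holds differentiating myoblasts out of the cycle. Its silenced values all lay above its control values, as in 2 of the 29 genes (background 6.94%). The difference of 0.15 (95% confidence interval -0.03 to 0.34) did not pass (limma, adjusted p = 0.871). Cdkn1a did not show the order 1, 2, 3 over the numbers (limma, adjusted p = 0.785 for the number).

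**Figure D4:**
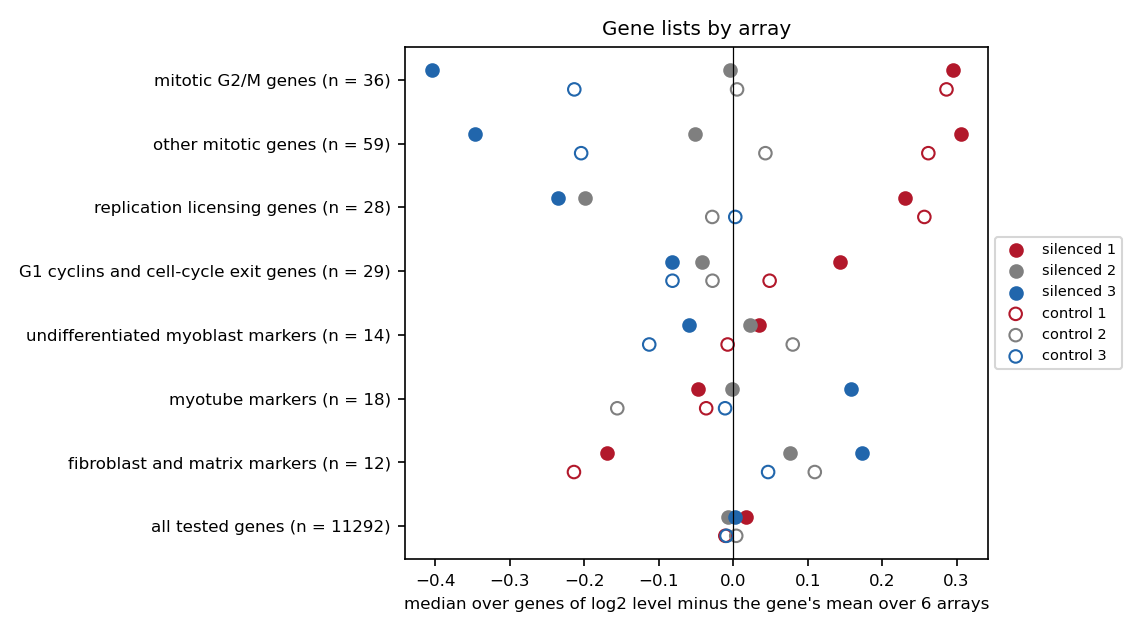
Median over each gene list of the log2 level minus the gene's own mean over the 6 arrays, for the 6 arrays (filled for silenced, open for control, coloured by replicate number). For the 36 mitotic genes arrays 1 lie at 0.29 in both groups, and arrays 3 at -0.40 in the silenced and -0.21 in the control group, while all tested genes stay near 0.

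In the labelled myotubes all 18 myotube markers passed the filter, which uses the mean over the 6 arrays and not each array. Among them were Myh3, embryonic myosin heavy chain, at 11.22 to 11.57, and Myog, the transcription factor myogenin, at 9.83 to 10.20 over the 6 arrays. Of these 18 markers 0 were called for silenced against control by limma, while 6 were higher (background 2.83%) and 0 lower (background 1.97%) at an unadjusted p under 0.05. The mean was higher in silenced arrays for 14 of the 18, with a median difference of 0.13. Their list had medians of -0.047, -0.0021 and 0.16 in silenced arrays 1, 2 and 3, against -0.036, -0.16 and -0.011 in control arrays 1, 2 and 3, so silenced array 3 was the lowest in mitotic genes and the highest in myotube markers. Among fibroblast and matrix markers, all 12 tested of 14 had a lower mean in number 1 than in number 3 (differences of -1.21 to -0.11), of which limma called 2 (background 2.28%). Their median for number 2 minus 3 was -0.027, with list medians of -0.17, 0.077 and 0.17 in silenced arrays and -0.21, 0.11 and 0.047 in control arrays 1, 2 and 3. Undifferentiated myoblast markers had 14 tested members and a median of 0.050 for number 1 minus 3. Of these 14, limma called 3 higher (21.4%, background 2.20%) and 1 lower (background 2.28%). Only 2 of 7 adipocyte markers passed the filter, neither of them called. The part of these cell types in the mitotic pattern was not tested. Over all tested genes the 6 arrays correlated between 0.985 and 0.995, and their median levels lay between 4.21 and 4.27.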

How the data were processed

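The deposited values are log2 expression levels of 35556 probe sets on 6 Affymetrix arrays of 1 colour. The authors processed them with RMA, per the submitters' processing notes, and its version is not given in the sources used here. This method removes background, equalizes the arrays' distributions and summarizes probes, and it shrinks differences of dim genes. There were 0 columns of other samples, and precision is limited by having 6 arrays.

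Gene names came from the platform annotation: of 23099 annotated probe sets, 21218 name 1 gene and 1881 several. Per gene the probe set with the highest mean over the 6 arrays was kept, and genes above the 40th percentile of the mean (3.87) were tested. Tests were 2-sided, by limma 3.58.1 (functions lmFit and eBayes) under R 4.3.3, adjusted by Benjamini-Hochberg over the 11292 genes at a threshold of 0.05. The procedure was tested on simulated data. Those made for the group comparison held no shared effect of the replicate number, so they do not cover that feature of these arrays. Fits were group alone, and group with replicate number. Alternatives were the replicate block, other filters, averaged probe sets, repeated quantile normalization, an intensity trend with a robust prior, and arrays left out. Deviations of same-numbered arrays from the group means correlated at 0.55, 0.35 and 0.42, so equal numbers were treated as pairs, from the data and not from a label.

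Genes given in each array are, by role, those with the smallest p for group and for number, with a panel of Cdk1, Ccnb1, Aurkb, Plk1, Cdc20, Cenpa, Top2a and Mki67, and outside the 40 genes Foxm1, Mybl2, Cdkn1a and the further mitotic genes with the smallest p in each direction. The 40 genes and all lists were chosen with earlier results of these data known. Other genes named were chosen after their values were seen.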

Additional observations from a re-analysis of the deposited data

How the results depend on the processing

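No gene was called for silenced against control under any of the 13 alternatives run, including the replicate block, over all genes or among the 36 mitotic genes. The median difference of the mitotic genes ranged from -0.21 to 0.12 over the fits without 1 array, which leave the replicate numbers unequal between the groups. Without both arrays numbered 1 it was -0.090. The order of the replicate numbers, complete in both groups for 30 genes, was found in 29 or 30 under the 5 alternatives with all arrays that recompute it. Calls for the replicate number depended on the processing. Without the filter on low levels 58 genes were called over all genes, 0 of them mitotic, and 2 mitotic genes were called for number 1 over number 3, where more genes share the adjustment. With the stricter filter 847 genes were called, 29 of them mitotic, and with the intensity trend 1090, 31 of them mitotic. Repeated quantile normalization gave 20 mitotic calls. Fits without 1 array gave 17 to 1070 genes, 0 to 29 mitotic genes, and 0 to 28 mitotic genes for number 1 over number 3. The counts of that last contrast and the order were added after seeing the data. Leaving out both arrays numbered 1 was run for the group comparison. Of 311 values of 24 named genes under the alternatives, 40 had the opposite sign of a difference that was never called. With the replicate block the mitotic median was the same, -0.061. The block changed no call.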
